A study of Arabidopsis thaliana with 36 samples.

Results

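The comparison is between wild-type seedlings heated for the second time (P+T) and wild-type seedlings heated for the first time (T), and asks which genes respond more, and which less, to the same heat stress (HS) when an HS had been given 2 days before. It takes 6 of the 36 libraries of the series, 3 of P+T and 3 of T, all of the *Arabidopsis thaliana* accession Col-0. P+T seedlings received HS on day 5 and on day 7, and T seedlings on day 7 alone. Used beside them are Col-0 seedlings with HS on day 5 alone (P) and without HS (NHS), and the P+T and T groups of *hsfa2* and *cdk8*, which are T-DNA insertion mutants in the Col-0 background. Each HS lasted 60 min at 37 °C, seedlings were otherwise grown at 23 °C, and all were harvested whole on day 7, so that T and P+T were taken after their HS on that day. Every group has 3 biological replicates. Because whole seedlings were used, a change in the share of an organ and a change in the RNA of its cells cannot be told apart.

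The measurement is the number of read pairs of polyadenylated RNA counted on each gene, given below as CPM (counts scaled to the total of counted pairs in the library). The 6 libraries had 29790124 to 31062891 counted pairs, and 3 pairs amount to 0.0966 to 0.1007 CPM. Levels of different genes are not compared, since CPM is not corrected for gene length. Leaf markers summed to 43797 to 46617 CPM at P+T and 42327 to 45867 CPM at T (3 of 3 genes detected), and the 4 root markers to 11.0 to 13.1 CPM at P+T and 8.19 to 10.8 CPM at T. The 3 flower markers stayed under 1 CPM in sum, at 0.296 to 0.587 CPM at P+T and 0.369 to 0.628 CPM at T, and the 3 seed markers varied from 6.19 to 35.7 CPM at P+T and from 2.18 to 56.9 CPM at T. Replicate 3 had the lowest scaling factor of its group in both treatments, 0.694 at P+T and 0.698 at T, against 0.768 and 0.777 for the other P+T libraries.

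Heat shock factors (HSFs) are the transcription factors of the heat response. They bind heat shock elements, arrays of the units GAA and TTC in alternation, in the promoters of genes for heat shock proteins (HSPs), chaperones that keep unfolding proteins from aggregating. HSFA1 factors start the response, and HSFA2, itself a product of it, prolongs it. Plants that survived a mild HS respond differently to the next for days, which is called HS memory. CDK8 is the kinase of a module of Mediator, the complex that links transcription factors to RNA polymerase II.

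Of 20847 genes tested, 633 were higher (3.04%) and 340 lower (1.63%) at P+T than at T, by a log2 fold change (log2FC) beyond 1 or −1 at an adjusted p below 0.05 in edgeR. Below, such genes are called higher or lower. Most of the transcriptome was close to equal in both treatments. The median log2FC was −0.01, and 76.1% of genes had a log2FC within 0.5 of 0. Among the called genes 131 had a log2FC above 2 and 44 one below −2. The higher genes summed to 26964 to 29625 CPM at P+T and to 8363 to 10065 CPM at T, and the lower genes to 4458 to 5170 CPM at P+T and to 12120 to 12709 CPM at T. All 3 P+T libraries were above all 3 T libraries for 615 of the 633 genes (15.3% of all genes), and below them for 310 of the 340 (11.5% of all genes). Since these genes were chosen by the same comparison, nothing is read from these counts. Of the higher genes 149, and of the lower genes 63, overlap another gene, so that their count could depend on the strand setting. In 28 higher genes no T library had more than 3 pairs, and in 27 lower genes no P+T library had, and the fitted log2FC of these genes is not a measure of size. Leaving replicate 3 out of both groups, an alternative chosen after seeing the data, gave 502 higher and 214 lower genes, and fitting the 6 libraries alone gave 529 and 226.

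Of the called genes, *MIPS2*, *APX2*, AT4G22240, *cpHsc70-1* and *PTR5* had the largest increase in mean CPM. *MIPS2* (AT2G22240), which encodes myo-inositol-1-phosphate synthase, the entry enzyme of inositol synthesis, had 2191, 1935 and 2181 CPM at P+T, against 231, 226 and 224 CPM at T. The groups were far apart, with a log2FC of 3.20 (standard error, SE, 0.14, adjusted p = 4.43e-17). *MIPS2* overlaps other genes on the opposite strand. *APX2* (AT3G09640), a cytosolic ascorbate peroxidase that removes hydrogen peroxide, had 1867, 1591 and 1805 CPM at P+T and 276, 252 and 240 CPM at T (log2FC 2.77, SE 0.24, adjusted p = 5.58e-10). *PTR5* (AT5G01180), a transporter of short peptides, had 1007, 934 and 823 CPM at P+T and 246, 213 and 167 CPM at T. Its log2FC was 2.13 (SE 0.16, adjusted p = 3.25e-11). A plastid fibrillin, AT4G22240, averaged 1842 ± 322 CPM at P+T and 746 ± 11.1 CPM at T (SD, n = 3 each), and *cpHsc70-1* (AT4G24280), the HSP70 of the chloroplast stroma, 1726 ± 61.6 CPM at P+T and 844 ± 29.1 CPM at T. Without P+T replicate 3 the log2FC of *cpHsc70-1* was 0.96, below the limit of 1.

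**Figure D1:**
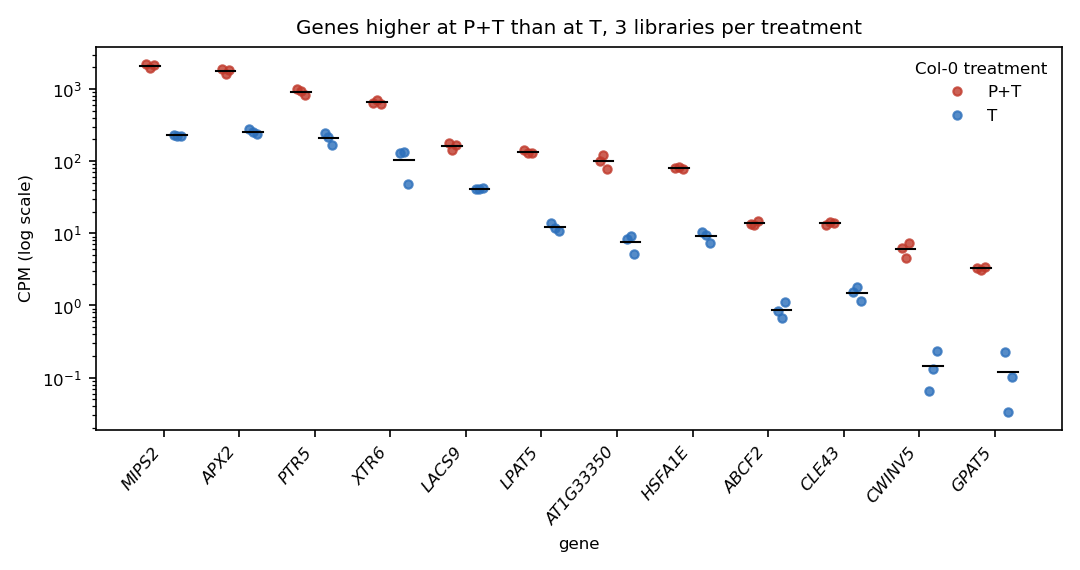
CPM on a log axis of 12 genes that were higher at P+T (red) than at T (blue) in Col-0. Each point is 1 library and each black line the mean of 3. In each gene the lowest P+T library lies above the highest T library, and T replicate 3 of *XTR6* stands apart at 48.2 CPM.

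A pair of lipid genes was higher. *LPAT5* (AT3G18850), a lysophosphatidyl acyltransferase, which adds an acyl chain in phospholipid synthesis, had 142, 131 and 130 CPM at P+T and 13.8, 11.96 and 10.7 CPM at T. The libraries of each treatment spread little beside the gap between them (log2FC 3.46, SE 0.13, adjusted p = 1.56e-18). *LACS9* (AT1G77590), a long-chain acyl-CoA synthetase of the plastid envelope, had 176, 142 and 165 CPM at P+T and 41.0, 41.3 and 42.0 CPM at T (log2FC 1.94, SE 0.10, adjusted p = 8.93e-15). The other 11 tested members of the list of lysophosphatidyl acyltransferases and long-chain acyl-CoA synthetases were not called, and the median of the list was 0.17. Neither gene was called at T against NHS or at P against NHS. *LPAT5* averaged 15.8 ± 1.88 CPM at P and 13.2 ± 1.32 CPM at NHS, and *LACS9* 42.4 ± 3.06 and 37.3 ± 3.47 CPM (SD, n = 3 each).

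Among transcription factors, *HSFA1E* (AT3G02990) had the highest log2FC of the 19 HSFs tested. It had 80.5, 82.7 and 76.9 CPM at P+T and 10.6, 9.58 and 7.42 CPM at T (log2FC 3.11, SE 0.15, adjusted p = 8.20e-16). *HSFA1E* is 1 of the 4 HSFA1 genes, the master regulators of the heat response. The others, named after their values were seen, were not called, with a log2FC of 0.81 for *HSFA1D*, 0.38 for *HSFA1A* (named *HSF1* in RefSeq) and −0.55 for *HSFA1B* (*HSF3*). *HSFA6B* (AT3G22830) was the other HSF that was higher, with 13.0, 14.0 and 11.6 CPM at P+T and a wider spread of 3.70, 6.61 and 1.78 CPM at T (log2FC 1.67, SE 0.31, adjusted p = 0.000196). *MYB86* (AT5G26660), a MYB factor, had 13.5, 13.0 and 10.08 CPM at P+T and 1.51, 0.991 and 0.906 CPM at T. Its log2FC was 3.40 (SE 0.17, adjusted p = 2.60e-15). *CLE43* (AT1G25425), a gene of the CLE family of signalling peptides, had 13.2, 14.4 and 13.8 CPM at P+T and 1.51, 1.82 and 1.14 CPM at T (log2FC 3.20, SE 0.17, adjusted p = 1.06e-14).

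The highest log2FC at a mean of at least 5 CPM was that of *CWINV5* (AT3G13784), annotated as a cell wall invertase, an enzyme that splits sucrose. It had 6.32, 4.51 and 7.28 CPM at P+T and 0.0644, 0.132 and 0.235 CPM at T, of which the lowest library is under the 3 pairs taken as the floor. Its log2FC of 5.37 (SE 0.60, adjusted p = 9.89e-08) was thus measured against few reads, and it overlaps a gene on the opposite strand. *ABCF2* (AT5G09930), a protein of the ATP-binding cassette superfamily, followed with 13.4, 13.0 and 14.8 CPM at P+T and 0.837, 0.661 and 1.11 CPM at T (log2FC 3.97, SE 0.26, adjusted p = 8.81e-13). Pentatricopeptide repeat proteins act on organelle RNA, and 2 were in this group. AT1G33350 had 101, 122 and 78.4 CPM at P+T and 8.40, 9.25 and 5.24 CPM at T, and AT4G14170 had 12.1, 13.9 and 15.2 CPM at P+T and 1.58, 1.49 and 1.24 CPM at T. The rest of the 12 genes with the highest log2FC were the annotated seed maturation protein AT2G21820 (3.45), the uncharacterized AT5G41761 (3.38), the EF-hand protein AT2G34020 (3.28) and the oxidoreductase AT4G20350 (3.24), which overlaps genes on either strand.

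The 250 bases before the annotated start of 5 of these genes are shown, to set genes that rose strongly beside the sequence that HSFs bind. They are read 5′ to 3′ in the direction of the gene from the RefSeq assembly TAIR10.1, and capitals mark the GAA and TTC units of each heat shock element of 2 units, found as GAANNTTC or TTCNNGAA.
*HSFA1E*, chr3:673178-673427, plus strand: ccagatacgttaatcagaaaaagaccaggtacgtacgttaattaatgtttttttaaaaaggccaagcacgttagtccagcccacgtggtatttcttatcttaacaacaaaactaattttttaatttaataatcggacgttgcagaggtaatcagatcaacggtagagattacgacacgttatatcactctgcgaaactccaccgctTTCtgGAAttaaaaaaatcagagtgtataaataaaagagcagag
*APX2*, chr3:2955906-2956155, plus strand: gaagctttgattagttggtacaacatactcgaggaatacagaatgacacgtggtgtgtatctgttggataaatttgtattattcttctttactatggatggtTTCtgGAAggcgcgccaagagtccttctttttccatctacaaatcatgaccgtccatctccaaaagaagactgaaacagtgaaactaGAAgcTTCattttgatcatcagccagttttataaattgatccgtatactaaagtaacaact
*PTR5*, chr5:63937-64186, minus strand: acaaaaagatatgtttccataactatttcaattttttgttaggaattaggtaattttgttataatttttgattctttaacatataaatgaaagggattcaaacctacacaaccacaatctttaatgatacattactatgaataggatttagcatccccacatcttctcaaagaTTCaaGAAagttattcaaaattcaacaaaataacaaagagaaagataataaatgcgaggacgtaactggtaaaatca
*MIPS2*, chr2:9454301-9454550, minus strand: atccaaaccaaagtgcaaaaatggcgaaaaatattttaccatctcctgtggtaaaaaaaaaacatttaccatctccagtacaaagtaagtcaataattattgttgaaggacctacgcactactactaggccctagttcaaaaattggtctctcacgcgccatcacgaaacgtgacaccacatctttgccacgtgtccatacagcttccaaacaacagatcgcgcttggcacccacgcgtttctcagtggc
*LPAT5*, chr3:6501433-6501682, minus strand: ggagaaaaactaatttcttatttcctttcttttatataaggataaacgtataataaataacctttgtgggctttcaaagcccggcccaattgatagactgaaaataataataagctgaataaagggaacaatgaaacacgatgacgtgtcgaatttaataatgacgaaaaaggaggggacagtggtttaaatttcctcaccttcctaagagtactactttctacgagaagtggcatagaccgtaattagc
*HSFA1E* and *PTR5* have 1 such element each and *APX2* has 2, while *MIPS2* and *LPAT5* have none with this spelling in the stretch shown.

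The genes that were lower at P+T included regulators and chaperones of the heat response itself. *HSFA7A* (AT3G51910), a heat-induced HSF, had 371, 337 and 312 CPM at P+T, against 1351, 1241 and 1147 CPM at T. It had the lowest log2FC of the HSFs (−1.89, SE 0.14, adjusted p = 1.99e-11). Its close relative *HSFA7B* (AT3G63350) had 343, 328 and 346 CPM at P+T and 732, 720 and 793 CPM at T. Here the log2FC of −1.16 passed narrowly (SE 0.40, adjusted p = 0.0412), and the call was lost without any one of the 6 libraries (adjusted p = 0.0666 to 0.116) and with DESeq2 (adjusted p = 0.402), although the groups did not overlap. *DREB2A* (AT5G05410), a factor of the drought and heat responses that acts upstream of *HSFA3*, had 382, 368 and 386 CPM at P+T and 948, 914 and 1006 CPM at T (log2FC −1.35, SE 0.17, adjusted p = 8.43e-07). *NFXL1* (AT1G10170), a zinc finger protein, had 779, 714 and 700 CPM at P+T and 1431, 1653 and 1708 CPM at T, with a log2FC of −1.15 (SE 0.15, adjusted p = 7.06e-07). *ZAT6* (AT5G04340), a stress-induced zinc finger factor, had 116, 111 and 104 CPM at P+T and 273, 311 and 232 CPM at T. All of these were induced at T, and at NHS they averaged between 0.0985 CPM (*HSFA7B*) and 97.3 CPM (*NFXL1*), below each of their P+T libraries.

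*HSP81-3* (AT5G56010), a cytosolic HSP90, had the largest decrease in mean CPM of the called genes. It had 1158, 1083 and 1128 CPM at P+T and 2955, 3002 and 3394 CPM at T (log2FC −1.49, SE 0.13, adjusted p = 8.47e-10). It has near-identical paralogs, and pairs that mapped to more than 1 site were not counted, so its level is uncertain. *Hsp70-2* (AT5G02490) had 70.6, 62.4 and 78.8 CPM at P+T and 167, 168 and 195 CPM at T (log2FC −1.34, SE 0.15, adjusted p = 7.03e-08). *MEF1* (AT5G52630), a mitochondrial RNA editing factor, had 64.7, 50 and 51.2 CPM at P+T and 190, 174 and 169 CPM at T, with a log2FC of −1.70 (SE 0.12, adjusted p = 4.20e-12).

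**Figure D2:**
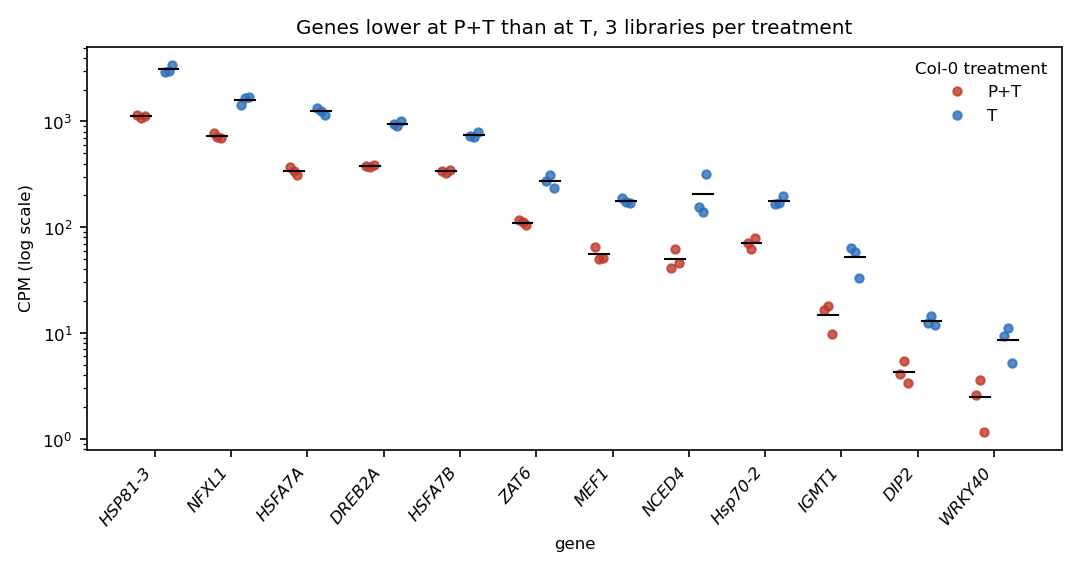
CPM on a log axis of 12 genes that were lower at P+T (red) than at T (blue) in Col-0. Points are single libraries and black lines means of 3. No gene has overlapping groups, and T replicate 3 of *NCED4* (321 CPM) lies above the other T libraries (140 and 156 CPM).

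Other lower genes had varied annotations. *NCED4* (AT4G19170), a carotenoid cleavage dioxygenase, had 41.5, 62.2 and 45.6 CPM at P+T and 156, 140 and 321 CPM at T (log2FC −2.08, SE 0.37, adjusted p = 0.000121). *IGMT1* (AT1G21100), which methylates indole glucosinolates, defence compounds of the cabbage family, had 16.5, 17.9 and 9.68 CPM at P+T and 63.8, 58.5 and 32.8 CPM at T (log2FC −1.83, SE 0.27, adjusted p = 9.30e-06). In this gene, as in *WRKY40*, replicate 3 was the lowest of both groups. The lowest log2FC of a gene with at least 5 CPM in the higher group was −2.20, for the uncharacterized AT2G20362 (2.51, 2.08 and 1.94 CPM at P+T and 10.7, 11.1 and 7.92 CPM at T). Others of the 12 lowest were *DIP2* (AT5G03210), annotated as an E3 ubiquitin ligase, *PKS4* (AT5G04190), a phytochrome kinase substrate of light-directed growth, the TIR domain protein AT1G72920, the kinase AT1G61590, the O-methyltransferase AT1G77520 and the heavy metal transport family protein AT1G51090, with log2FCs from −1.59 to −1.96.

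The same stretches are shown for 3 HSF and DREB genes that were lower, chosen because their heat shock elements are arranged differently from those above.
*HSFA7A*, chr3:19264891-19265140, plus strand: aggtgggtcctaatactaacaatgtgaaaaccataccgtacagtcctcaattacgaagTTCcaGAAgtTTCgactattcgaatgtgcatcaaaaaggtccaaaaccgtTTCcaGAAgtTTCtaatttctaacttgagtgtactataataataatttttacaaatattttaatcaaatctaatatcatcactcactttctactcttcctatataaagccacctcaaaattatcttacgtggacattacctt
*HSFA7B*, chr3:23398986-23399235, plus strand: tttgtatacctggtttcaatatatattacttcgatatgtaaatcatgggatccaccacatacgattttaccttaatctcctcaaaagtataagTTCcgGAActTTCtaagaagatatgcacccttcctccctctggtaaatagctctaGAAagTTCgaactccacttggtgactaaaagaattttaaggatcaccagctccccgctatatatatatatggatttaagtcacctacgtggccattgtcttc
*DREB2A*, chr5:1601955-1602204, plus strand: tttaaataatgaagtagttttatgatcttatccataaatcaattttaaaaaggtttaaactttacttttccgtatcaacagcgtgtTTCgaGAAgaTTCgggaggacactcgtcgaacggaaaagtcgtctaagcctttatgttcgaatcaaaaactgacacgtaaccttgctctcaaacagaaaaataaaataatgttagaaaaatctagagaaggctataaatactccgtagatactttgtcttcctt
In each of them elements of 2 units share a middle unit and so form a run of 3 units. Such runs are at 2 places in *HSFA7A* and at 1 place in *HSFA7B* and in *DREB2A*. In the window from 250 bases before to 50 after the start, *DIP2*, also lower, has 1 such run. Of other lower genes, *NFXL1*, *HSP81-3* and *Hsp70-2* have no element there and *ZAT6* has 1 of 2 units. *HSFA2* and *HSP70*, which were not called, have 1 run each. Over windows of 300 bases, from 250 before to 50 after the start, the 3-unit element was in 2.10% of the 334 protein-coding lower genes, in 0.65% of the 615 protein-coding higher genes and in 0.478% of all 27431 windows. Among genes induced at T but not called in P+T against T it was in 3.01% of 1462 windows. The 2-unit element was in 17.1% of the lower genes, 25.9% of the higher genes and 19.3% of all windows. It was in 26.6% of the windows of genes induced at T but not called in P+T against T. It includes the 3-unit form, and both were searched on both strands. The G-box CACGTG was in 27 of the 334 lower genes, 62 of the 615 higher genes and 7.68% of all windows. The shares were, for the drought-responsive core ACCGAC, 6.59% of lower genes, 5.20% of higher genes and 5.71% of all windows, and for the W-box (TTGACC or TTGACT) 30.8%, 29.6% and 32.4% of the same sets. In the 20313 windows of genes tested the 3-unit element was in 0.542%, the 2-unit element in 18.7% and the G-box in 8.96%. The core ACCGAC was in 6.25% of them and the W-box in 32.7%. All these are counts of letters in a window and say nothing of binding.

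The called genes were next grouped by their response to a single HS. Of all genes, 8.68% were induced and 17.1% repressed at T against NHS. This grouping shares the T libraries with P+T against T, and so is a description only. Of the 633 higher genes 152 had been induced at T, 213 repressed and 268 neither, and of the 340 lower genes 77 had been induced, 72 repressed and 191 neither. It also depends on the scaling, since library size alone moved the median log2FC of T against NHS to −0.82, against −0.05 with TMM, and left 95 of the higher genes induced, and 139 of the lower genes repressed and 115 neither. P+T against T itself moved little (median 0.00).

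The group induced at T and higher at P+T holds the hyper-induced genes in the usual sense, such as *MIPS2*, *APX2*, *PTR5* and *HSFA1E*. *XTR6* (AT4G25810), a xyloglucan-modifying enzyme of the cell wall, also belongs here. It had 640, 712 and 629 CPM at P+T and 131, 134 and 48.2 CPM at T (log2FC 2.66, SE 0.33, adjusted p = 3.86e-07). *HB21* (AT2G18550), a homeobox factor, had 2.93, 2.11 and 1.202 CPM at P+T and 0.322, 0.198 and 0.134 CPM at T. Of the 213 genes repressed at T and higher at P+T, 122 were also called higher for the difference in heat response described below. So were 68 of the 152 induced and 166 of the 268 in neither class, against 1.97% of all genes. That difference contains P+T against T, so nothing is read from these counts. *GPAT5* (AT3G11430), an acyltransferase of suberin, the waxy barrier polymer of root cell walls, had 3.32, 3.06 and 3.37 CPM at P+T and 0.225, 0.0330 and 0.101 CPM at T (log2FC 4.71, SE 0.38, adjusted p = 7.30e-11). At P it averaged 7.03 ± 1.24 CPM and at NHS 7.57 ± 1.61 CPM (SD, n = 3 each). With TMM scaling the fit gave a log2FC of P+T over P of −0.36 (adjusted p = 0.168). The TMM factors were 1.24 to 1.28 at P and 0.694 to 0.777 at P+T, whereas CPM use library size alone. In CPM each P+T library was below the P mean, so this comparison depends on the scaling. *MYB86* was also of this group, with 6.08 ± 0.552 CPM at P and 4.92 ± 0.467 CPM at NHS (SD, n = 3 each).

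Of the 77 genes lower at P+T that had been induced at T, some are given above. The 3 with the largest difference in heat response were at lower levels: the TIR domain gene AT1G72910 had 0.261, 0.758 and 0.401 CPM at P+T and 2.80, 3.37 and 4.13 CPM at T (log2FC −2.88, SE 0.48, adjusted p = 5.43e-05), and the other 2 were the glycosyltransferase AT1G01390 (−2.26) and the lectin AT3G21380 (−2.16), whose T libraries of 1.71, 5.65 and 0.906 CPM were uneven. Without T replicate 2 the log2FC of AT3G21380 was −1.11 (adjusted p = 0.438), and its call was also lost without any one P+T library (adjusted p = 0.0736 to 0.132). Among genes chosen for the largest difference in heat response, 7 had no pair in any library of 1 treatment and at most 0.2 CPM in the other, and no fold is given for them.

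**Figure D3:**
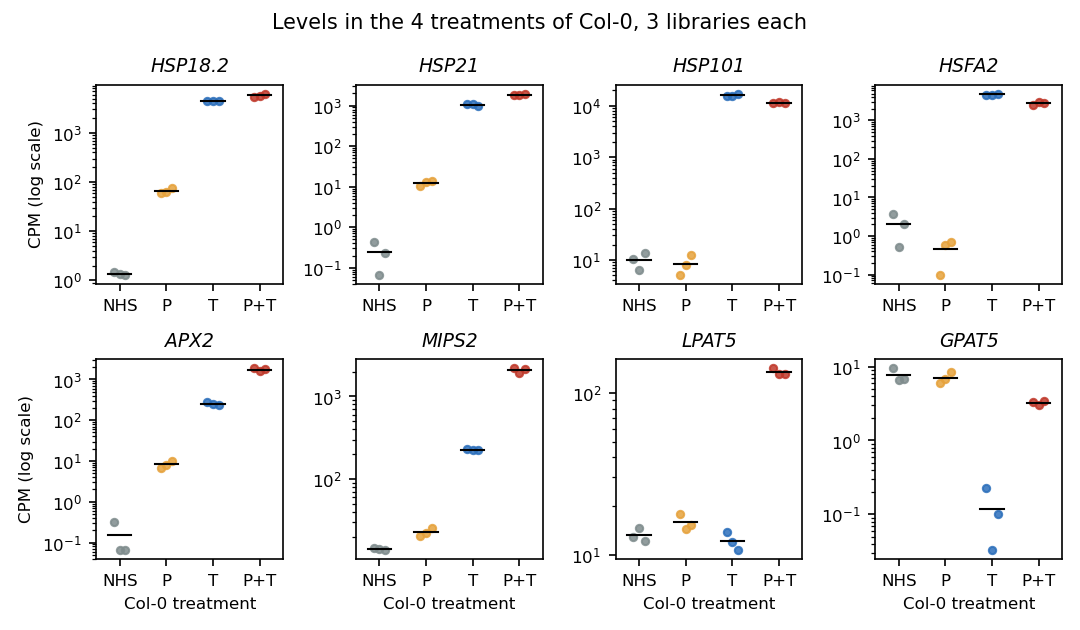
CPM on log axes of 8 genes in the 4 treatments of Col-0, each point 1 library and each line the mean of 3. At P, *HSP18.2*, *HSP21* and *APX2* are above NHS, *HSP101* and *HSFA2* are high at T and P+T alone, *LPAT5* stands out at P+T, and *GPAT5* drops at T and less at P+T.

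Whether the heat response itself differed was tested as the difference between the P+T/P and the T/NHS log2FC. It shares libraries with P+T against T, and its own counts were 411 genes with a positive (1.97%) and 168 with a negative difference (0.806%). For a gene that heat lowers, a positive difference means a smaller fall, or a rise, after priming, and a negative difference a larger fall. *GPAT5*, which fell at T, is such a gene. The difference was 3.19 for *LPAT5* (SE 0.17, adjusted p = 7.45e-14), 2.51 for *MIPS2* (SE 0.18, adjusted p = 6.70e-11), 3.23 for *HSFA1E* (SE 0.22, adjusted p = 1.23e-11) and 4.81 for *GPAT5* (SE 0.45, adjusted p = 1.09e-08). For *HSFA7A* it was −1.63 (SE 0.20, adjusted p = 1.85e-06), for *DREB2A* −1.46 (SE 0.25, adjusted p = 0.000249) and for *HSP81-3* −1.28 (SE 0.19, adjusted p = 2.54e-05). *APX2* went the other way. Its P+T level was higher than its T level, but it already averaged 8.37 ± 1.59 CPM at P and 0.152 ± 0.149 CPM at NHS, and its fold induction was smaller in primed seedlings (difference −2.96, SE 0.53, adjusted p = 0.000393). The naive fold was measured against few pairs at NHS, so the size of this difference is uncertain. Not all genes with a high log2FC of P+T against T passed this test. The difference was −0.89 for *CWINV5* (SE 1.16, adjusted p = 0.794) and 1.43 for *ABCF2* (SE 0.69, adjusted p = 0.284).

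What was left of the first HS before the second began was measured by P against NHS, which shares no library with P+T against T. It called 41 genes higher (0.197%) and 4 lower (0.0192%). Of the 633 genes higher at P+T, 23 were also higher at P (3.63%), which is 56.1% of the 41. One of the 340 lower genes was also lower at P, AT1G51090, with 5.94 ± 2.25 CPM at P and 21.6 ± 9.56 CPM at NHS. Among the 23, *CWINV5* had 3.72 ± 1.95 CPM at P and 0.0448 ± 0.0777 CPM at NHS, and *ABCF2* 0.532 ± 0.260 and 0.0878 ± 0.0497 CPM (SD, n = 3 each). Across the 973 called genes the log2FC of P against NHS and of P+T against T had a Pearson r of 0.37, and across all 20847 genes of 0.19, as a description over genes of the same plants' treatments, which are not independent.

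Small HSPs are the most strongly heat-induced chaperones. None of the 17 tested was called in P+T against T in either direction, and their median log2FC was 0.08, near the −0.01 of all genes. Yet 16 were induced at T, with a median T/NHS log2FC of 11.5. *HSP21* (AT4G27670), of the chloroplast, had 1787, 1862 and 1977 CPM at P+T and 1070, 1072 and 991 CPM at T (log2FC 0.84, SE 0.43, adjusted p = 0.203). *HSP22* (AT4G10250) had 3242, 3697 and 3827 CPM at P+T and 2103, 2174 and 2422 CPM at T, and *HSP18.2* (AT5G59720) 5384, 5626 and 6305 CPM at P+T and 4416, 4373 and 4418 CPM at T. In these 3 genes the groups did not overlap, but the log2FC was below 1. Each was also higher at P than at NHS. *HSP18.2* averaged 66.7 ± 8.75 CPM at P and 1.36 ± 0.0909 CPM at NHS, *HSP21* 12.5 ± 1.99 and 0.241 ± 0.178 CPM, and *HSP22* 7.07 ± 2.08 and 0.188 ± 0.119 CPM (SD, n = 3 each). Their fold induction was smaller in primed seedlings, with a difference in heat response of −5.24 for *HSP18.2* (SE 0.62, adjusted p = 8.36e-07), −4.84 for *HSP21* (SE 0.84, adjusted p = 0.000289) and −4.54 for *HSP22* (SE 1.08, adjusted p = 0.00831). *HSP21* and *HSP22* had few pairs at NHS, so the size of their differences is uncertain.

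For genes nearly silent without HS the SE depended on the groups in the fit. Fitting the 6 libraries alone gave an adjusted p-value of 0.00142 for *HSP21* (log2FC 0.82) and 0.0144 for *HSP22* (0.66), still below the log2FC limit. The same holds for *HSFA2* (AT2G26150), which had 2571, 3016 and 2817 CPM at P+T and 4686, 4610 and 4983 CPM at T. Its log2FC of −0.78 had an adjusted p-value of 0.463 (SE 0.62) over 12 groups and of 0.00321 over 6 libraries. *HSP101* (AT1G74310), the disaggregase of acquired thermotolerance, had 11584, 11990 and 11160 CPM at P+T and 15940, 15703 and 17410 CPM at T (log2FC −0.52, adjusted p = 0.569 over 12 groups and 0.0229 over 6 libraries). The heat-induced cytosolic *HSP70* (AT3G12580) had 16701, 17283 and 17051 CPM at P+T and 17609, 17920 and 19337 CPM at T, with adjusted p-values of 0.903 and 0.592. *HSFA3* (AT5G03720) had 54.7, 46.4 and 47.2 CPM at P+T and 56.4, 69.7 and 59.8 CPM at T, and was not called (log2FC −0.34, adjusted p = 0.103).

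The remaining lists follow by function, to be read beside 3.04% higher and 1.63% lower of all genes. Of 19 HSFs, 2 were higher and 2 lower (median −0.02), all named above. Of 8 other heat-related transcription factors, 2 were lower, *DREB2A* and *NAC042* (AT2G43000), of which *NAC042* had under 1 CPM in every library and lost its call without any one of 5 of the 6 libraries (adjusted p = 0.0629 to 0.0690). Of 25 members of the HSP70, HSP90 and HSP101 families, 3 were higher, *cpHsc70-1*, AT1G11660 (log2FC 1.58) and AT4G16660 (1.28), and 2 lower, and the median was −0.28. In this list 15 members had all P+T libraries below all T libraries and 5 above, beside 11.5% and 15.3% of all genes. None of 19 co-chaperones and chaperonins and none of 14 genes of endoplasmic reticulum stress was called (medians −0.06 and 0.17). Of 18 genes that scavenge peroxide and superoxide, *APX2* alone was called.

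Of 9 genes of inositol, galactinol and raffinose synthesis, whose products protect cells as compatible solutes, *MIPS2* and *GolS4* (AT1G60470, log2FC 1.29) were higher and *GolS3* (AT1G09350, −1.83, under 1 CPM) was lower. *GolS3* lost its call without P+T replicate 1 or 3 (adjusted p = 0.0770 and 0.0577) or T replicate 3 (log2FC −1.28, adjusted p = 0.178). *GolS4* lost its call without T replicate 1 or 2 (adjusted p = 0.0759 and 0.0605). The list of 12 genes of suberin synthesis and export had 5 higher members, the largest share of the lists (41.7%), and a median of 0.36. Beside *GPAT5* these were *ASFT* (AT5G41040, named *RWP1* in RefSeq), the feruloyl transferase of suberin, with 6.52, 7.18 and 7.18 CPM at P+T and 0.579, 0.859 and 1.38 CPM at T, *MYB41* (AT4G28110), an activator of suberin genes, with 3.26, 2.73 and 2.47 CPM at P+T and 0.290, 0.528 and 0.201 CPM at T, *KCS2* (AT1G04220, log2FC 1.25), which elongates fatty acids, and *ABCG6*, a transporter, named after its value was seen. All are low in whole seedlings, and *GPAT5* and *ASFT* were both lower at T than at NHS. The suberin list was split. At an adjusted p below 0.05 without the fold limit 6 members were higher and 2 lower, beside 2013 and 1461 of all 20847 genes. All P+T libraries lay above all T libraries in 6 members and below them in 2, beside 15.3% and 11.5% of all genes. The lowest log2FC of the list was −1.09. The root markers are given above, and their part in the suberin values was not tested. No member of the lists of 18 phenylpropanoid and 15 flavonoid genes was called (medians −0.11 and 0.37).

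**Figure D4:**
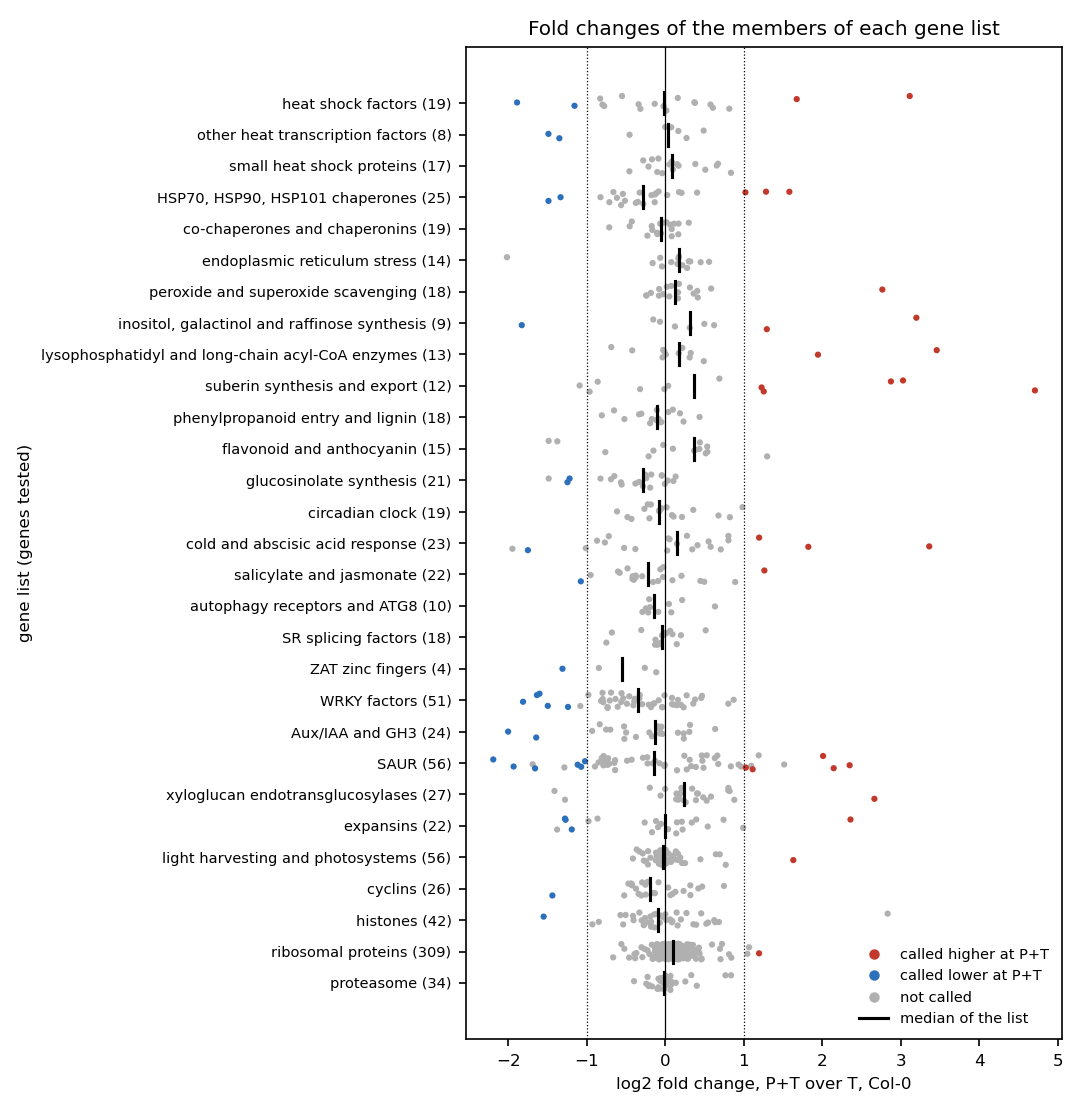
Log2FC of P+T over T in Col-0 for each tested member of 29 gene lists. Red points were called higher, blue points lower and grey points not called, black bars are list medians, and dotted lines mark log2FCs of 1 and −1. The suberin list has 5 red points and the WRKY list 5 blue ones, while the small HSPs lie within 1 of 0.

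Defence-related lists are set beside 3.04% higher and 1.63% lower of all genes. The shares lower were 9.8% of WRKY factors, 9.52% of glucosinolate genes, 4.55% of salicylate and jasmonate genes and 25% of ZAT factors. Only the salicylate and jasmonate list had a higher member, 4.55% of its genes. Of 51 WRKY factors, regulators of pathogen responses, 5 were lower and none higher, and the median was −0.35. In 19 of them all P+T libraries were below all T libraries, and in 1 above, beside 11.5% and 15.3% of all genes. *WRKY40* (AT1G80840) had 2.57, 3.62 and 1.17 CPM at P+T and 9.43, 11.0 and 5.17 CPM at T (log2FC −1.81, SE 0.35, adjusted p = 0.000297). *WRKY31* (AT4G22070) had 0.913, 0.955 and 1.00 CPM at P+T and 2.83, 3.14 and 2.89 CPM at T, and *WRKY35* and *WRKY8* were at similar or lower levels (log2FC −1.50 and −1.60). *WRKY8* lost its call without T replicate 1 or P+T replicate 2 or 3, and in the fit of 6 libraries (adjusted p = 0.0548 to 0.141). Of 21 genes of glucosinolate synthesis, *CYP79B2* (AT4G39950) and *SOT17* (AT1G18590) were lower, with log2FCs of −1.25 and −1.22 and a list median of −0.29. T replicate 3 had 13.7 CPM of *CYP79B2*, against 7.53 and 6.54 CPM in the other T libraries. Without it the adjusted p-value was 0.0880 for *CYP79B2* and 0.217 for *SOT17*. *CYP79B2* also lost its call without P+T replicate 2, where its log2FC was just above −1, and *SOT17* without P+T replicate 1 or 2 (adjusted p = 0.0739 and 0.0901). Of 22 salicylate and jasmonate genes, *JAZ3* (−1.08) was lower and *JAZ7* (1.26) higher, and of 4 ZAT factors *ZAT6* was lower. *JAZ7* lost its call without any one of the 6 libraries, and *JAZ3* dropped to a log2FC of −0.99 without T replicate 2 and also lost its call without P+T replicate 3.

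Of 23 genes of the cold and abscisic acid (ABA) response, 3 were higher. *HAI1* (AT5G59220), an ABA-induced protein phosphatase, had 16.7, 14.2 and 16.7 CPM at P+T and 4.28, 5.85 and 3.26 CPM at T (log2FC 1.82, SE 0.22, adjusted p = 3.90e-07). Its relative *HAI3* (AT2G29380) had 1.69, 1.42 and 1.74 CPM at P+T and 0.129, 0.231 and 0.101 CPM at T. *LTI65* (AT5G52300, log2FC 1.19) had overlapping groups and lost its call without P+T replicate 1 or 3, T replicate 2 or 3, or in the fit of 6 libraries. *CBF2* (AT4G25470), a factor of cold acclimation, was lower, with 0.880, 1.35 and 0.601 CPM at P+T and 3.57, 3.57 and 2.32 CPM at T (log2FC −1.75, SE 0.30, adjusted p = 8.22e-05).

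For growth-related lists the shares also stand beside 3.04% higher and 1.63% lower of all genes. Of SAUR genes 8.93% were higher and 10.7% lower, of expansins 4.55% and 13.6%, and of Aux/IAA and GH3 genes 0% and 8.33%. Among xyloglucan endotransglucosylases 3.7% were higher, and 3.85% of cyclins and 2.38% of histones were lower. These shares rest on few genes, and no test of the lists was made. Of 56 tested SAUR genes, small auxin-induced growth genes, 5 were higher, among them *SAUR36* (AT2G45210, log2FC 2.01) and AT3G61900 (2.14), and 6 lower. Of 22 expansins, which loosen cell walls, *EXPA16* (AT3G55500, 2.36) was higher and *EXPA8* (AT2G40610, −1.19), *EXPA11* (AT1G20190, −1.28) and *EXLA3* (AT3G45960, −1.27) were lower. *EXPA8* had a log2FC of −0.91 without T replicate 3. *EXLA3* lost its call with DESeq2, without the filter on low counts, in Col-0 libraries alone and without replicate 2 or 3 of either group (adjusted p = 0.0611 to 0.173). Of 24 Aux/IAA and GH3 genes, 2 were lower, *IAA29* and *IAA5*, both at low levels. *IAA5* lost its call with DESeq2 (adjusted p = 0.0544) and without any one P+T library or T replicate 1 (adjusted p = 0.0566 to 0.203), and *IAA29* without replicate 3 of both groups (adjusted p = 0.0622). *XTR6* was the single called gene of 27 xyloglucan endotransglucosylases, and 1 of 26 cyclins, *CYCD4;2*, and 1 of 42 histones, AT2G28720, were lower. *CYCD4;2* lost its call with DESeq2, without the filter on low counts, in Col-0 libraries alone and without P+T replicate 1 or 2 or T replicate 1 or 2 (adjusted p = 0.0527 to 0.215), and AT2G28720 without T replicate 3 (adjusted p = 0.0787). No gene was called among 19 clock, 18 SR splicing factor, 10 autophagy or 34 proteasome genes. In the large lists of 309 ribosomal protein and 56 light-harvesting and photosystem genes 1 each was higher, AT5G63300 and *PSBP-2*, and the medians were 0.10 and −0.03.

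The same comparison in the mutants used libraries of its own. In *hsfa2*, 237 genes were higher (1.14%) and 150 lower (0.72%), and in *cdk8* 308 higher (1.48%) and 169 lower (0.811%). Of the 633 genes higher in Col-0, 155 were called higher in *hsfa2* (24.5% of the Col-0 and 65.4% of the *hsfa2* list) and 202 in *cdk8* (31.9% and 65.6%). Of the 340 lower genes, 81 were called lower in *hsfa2* (23.8% and 54.0%) and 69 in *cdk8* (20.3% and 40.8%). These overlaps need both thresholds in both genotypes. Of the 633 higher genes 580 had a log2FC above 0 in *hsfa2* (median 0.675) and 582 in *cdk8* (median 0.833). Over all genes 50.9% and 48.2% were above 0. Of the 340 lower genes 315 in *hsfa2* (median −0.756) and 301 in *cdk8* (median −0.716) were not above 0. A log2FC difference between genotypes past both thresholds was found for 11 genes higher (0.0528%) and 122 lower (0.585%) in *hsfa2*, and for 29 higher (0.139%) and 59 lower (0.283%) in *cdk8*, relative to Col-0. For *LPAT5* the log2FC was 0.39 in *hsfa2*, 1.97 in *cdk8* and 3.46 in Col-0, for *HSFA1E* 0.29, 2.29 and 3.11, and for *CLE43* −0.03, 1.10 and 3.20. *GPAT5* had 4.29 in *hsfa2*, 2.92 in *cdk8* and 4.71 in Col-0, and the difference from Col-0 did not pass the test in *hsfa2* (adjusted p = 1.00) or in *cdk8* (−1.79, SE 0.75, adjusted p = 0.469). *HSFA7A* had −0.76 in *hsfa2*, −0.49 in *cdk8* and −1.89 in Col-0. These genes were named for their change in Col-0, whose libraries enter the difference between genotypes, so these values are a description.

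**Figure D5:**
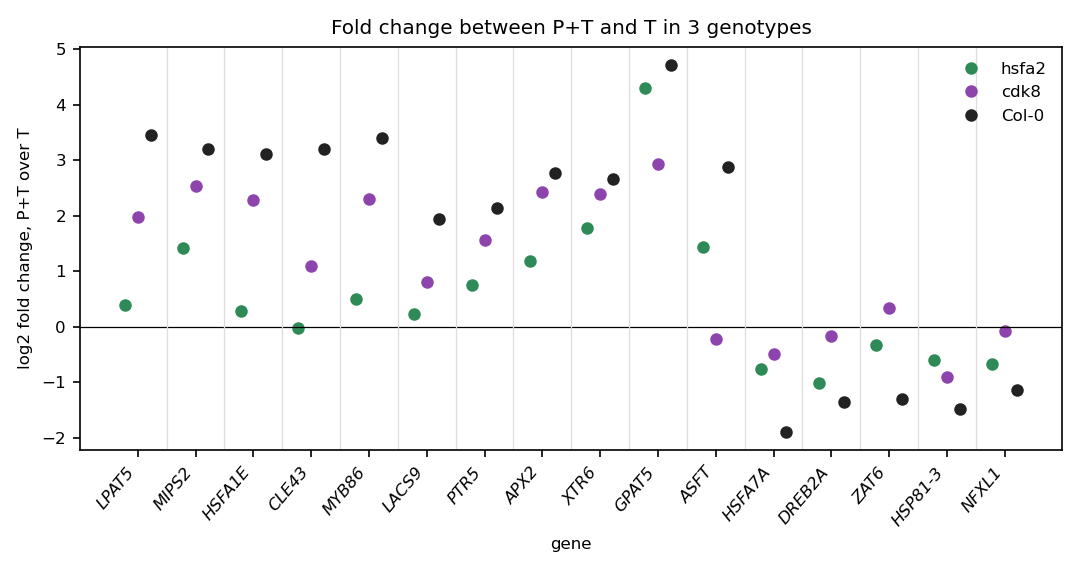
Log2FC of P+T over T for 16 genes named above in *hsfa2* (green), *cdk8* (purple) and Col-0 (black), fitted over 3 libraries per treatment and drawn without error bars. *LPAT5*, *HSFA1E*, *CLE43* and *MYB86* are at or under 0.50 in *hsfa2* and above 3 in Col-0, *GPAT5* is above 2 in all 3 genotypes, and the 5 lower genes on the right are drawn closer to 0 in both mutants. For these 5 the difference from Col-0 passed an adjusted p under 0.05 in *hsfa2* for *HSFA7A* and *HSP81-3* alone. In *cdk8* it passed for *HSFA7A*, *NFXL1*, *DREB2A* and *ZAT6*.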

How the data were processed

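Polyadenylated RNA of whole seedlings was sequenced as read pairs on a DNBseq platform. The authors mapped the pairs to TAIR10 with STAR 2.7.10a and deposited raw counts per gene for each library, with no normalization. Which strand setting was used is not given in the sources used here, and 10550 of 36632 genes overlap another gene.

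Counts were fitted with edgeR 4.0.16 (R 4.3.3) in a quasi-likelihood model of all 12 groups of 3 replicates, after filterByExpr (minimum count 10, minimum total 15) and TMM scaling. A gene was called where its log2FC was beyond 1 or −1 and its p-value, adjusted by Benjamini and Hochberg, was below 0.05, the thresholds of the study, which used DESeq2. The SE given with a log2FC is its absolute value divided by the square root of the F statistic of its test. CPM are scaled to library size alone. Replicate numbers paired P+T with T in Col-0: over 13382 genes, same-numbered libraries deviated together from their group means (r = 0.302, 0.594 and 0.546), whereas libraries of different numbers had r from −0.523 to 0.048. Deviations cancel within a group, so a positive r for same numbers lowers the r of different numbers. Same-numbered P and NHS libraries had r of −0.05, 0.17 and 0.45, and T and NHS libraries 0.09, −0.16 and 0.54. For P+T and P the values were 0.21, 0.20 and 0.46. The fit has no block for replicate numbers, and an alternative has. The other alternatives were DESeq2 1.42.0 or its size factors, library size alone, no filter or a mean of at least 1 CPM, Col-0 or the 6 libraries alone, glmTreat, the adjusted p-value without a fold limit, and each replicate left out. The procedure was tested on simulated counts. These were drawn without the shared deviations of same-numbered libraries, and only genes with a mean of at least 1 CPM were changed. Nothing is concluded from them about the calls in the real libraries.

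Genes named are those with non-overlapping libraries and a mean of at least 5 CPM with the 12 highest and 12 lowest log2FCs, the 5 largest differences in mean CPM in each direction, up to 4 called genes per list, genes that the study followed, and 3 genes in each class by T/NHS response with the largest difference in heat response. The genes and lists were chosen with earlier results of these data known, and some list members were picked by the study from these libraries. Symbols, positions and promoter sequences are from RefSeq TAIR10.1, in which all 36632 identifiers matched, and sequences were read from that genome.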

Additional observations from a re-analysis of the deposited data

Results flagged for a closer look

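For 26 named genes in *hsfa2* and 18 in *cdk8* the P+T/T log2FC differed from that in Col-0 by an edgeR interaction test (adjusted p under 0.05 over all genes). The genes were named from the Col-0 libraries that enter each difference.

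Among those in *hsfa2*, the difference from Col-0 was negative for the genes that were higher in Col-0. It was −3.06 for *LPAT5* (adjusted p = 1.69e-13), −2.83 for *HSFA1E* (1.72e-10), −3.23 for *CLE43* (1.02e-09), −1.72 for *LACS9*, −2.90 for *MYB86*, −1.79 for *MIPS2*, −1.58 for *APX2*, −1.37 for *PTR5* and −2.55 for *ABCF2*. Chaperone genes had −0.71 (*cpHsc70-1*), −1.02 (AT1G11660) and −0.97 (AT4G16660). Among the others it was −1.67 for AT1G33350, −1.97 for AT2G21820, −2.35 for AT5G41761, −1.76 for AT2G34020, −2.62 for AT4G14170, −2.85 for AT4G20350, −0.74 for AT4G22240 and −4.24 for AT1G05330, the last at under 1 CPM in Col-0. It was positive for genes that were lower in Col-0, at 1.13 for *HSFA7A*, 0.89 for *HSP81-3*, 0.77 for *MEF1*, 1.38 for *DIP2* and 2.10 for AT1G51090, and for *HSFA3* (0.82), which was not called in Col-0.

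In *cdk8*, the difference from Col-0 was −1.49 for *LPAT5* (adjusted p = 6.21e-06), −1.15 for *LACS9*, −0.82 for *HSFA1E*, −2.10 for *CLE43*, −1.10 for *MYB86*, −1.60 for *ABCF2*, −3.10 for *ASFT* (named *RWP1* in RefSeq), −0.85 for AT4G16660, −2.26 for AT5G41761, −1.99 for AT2G34020, −1.44 for AT4G14170 and −1.79 for AT4G20350. It was 1.40 for *HSFA7A*, 1.07 for *NFXL1*, 1.18 for *DREB2A*, 2.79 for *CBF2*, 1.66 for *ZAT6* and 1.25 for *HSFA3*.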

How the results depend on the processing

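No named gene changed direction under an alternative that gave it a value. Of the 95 named genes 73 had a value at a mean of at least 1 CPM, 81 in the 6 libraries alone, 91 in Col-0 libraries alone and 93 with DESeq2. For P+T against T, glmTreat, which tests against the fold limit itself, called 164 higher and 18 lower genes, and the adjusted p-value alone 2013 and 1461. The 6 libraries alone gave 226 lower genes and both replicates 3 left out, an alternative chosen after seeing the data, 214. Leaving out each library in turn gave 529 to 640 higher and 269 to 379 lower genes. With the replicate block there were 651 and 362, and 2 of 88 named genes lost their call, AT5G40410 and *CLE42*, both at 0 in every P+T library. Of the 88, 51 lost it with glmTreat, 7 with DESeq2, 11 to 19 without 1 library and 24 without both replicates 3. For the difference in heat response glmTreat gave 57 positive and 7 negative differences, and the adjusted p-value alone 812 and 403. Leaving out each library gave 342 to 442 and 119 to 199, and without both replicates 3 there were 82 negative differences. For P against NHS, glmTreat gave 7 higher and 0 lower, where the adjusted p-value alone gave 87 and 16 and DESeq2 12 lower. Without the filter 9 were lower, in Col-0 libraries alone 2, with the replicate block 14, and leaving out each library 27 to 38 higher and 2 to 7 lower. For *cdk8* minus Col-0, library size alone gave 19 higher and the replicate block 46. With library size alone 95 higher genes were induced at T, and 139 lower genes were repressed and 115 neither. The cause of these shifts was not tested. Depth limits genes with few pairs, and the strand setting those that overlap another gene.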
